A study of Mus musculus with 11 samples.

Results

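The matrix metalloproteinases (MMPs), ADAM and ADAMTS proteases, cathepsins, serpins and cystatins form most of the extracellular and lysosomal proteolytic system of the colon, together with the tissue inhibitors of metalloproteinases (TIMPs) and Reck. They were taken by gene name, as all listed genes named Mmp, Adam, Adamts, Timp, Cts, Serpin or Cst with a following number or letter, plus Reck. Of 80 such names, 79 were kept and 1 was left out by the same rule. These 79 genes stand among 7868 genes in the deposited comparison of colon tissue. One of them, Cstf2, encodes a subunit of the cleavage stimulation factor that processes the ends of mRNAs, and shares only its spelling with the cystatins.

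The study compared colon from 4 naive mice with colonic tumor tissue from 7 mice after azoxymethane and dextran sulfate sodium (AOM/DSS), a model of colitis-associated cancer in which a carcinogen is combined with a chemical that injures the colon lining. All 11 mice were female and wildtype, and their age is not given in the labels. A dose of 10 mg/kg AOM was injected on day 0. Drinking water with 1.5% DSS followed from day 7 in 3 cycles, in which 5 days of DSS preceded 16 days of recovery, and the colon was collected on day 70. Sources describe naive colon and AOM/DSS tumors alike as full-thickness tissue, and how much muscle coat or mucosa each piece held is not given.

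Every value below is the authors' mean of 1 group on their normalized scale of 3′ mRNA sequencing, in which reads come from transcript ends. Levels of different genes and their sums are set side by side on the assumption that this scale holds no division by gene length, which the sources do not state. Values per mouse were not used, as the table holds group means alone, so the spread between the 4 naive and between the 7 AOM/DSS mice is unknown for each gene, and no test was run. The table lists only genes whose unadjusted p in the authors' own comparison was at or below 0.05. A member that is not listed is therefore not called unchanged. A common sequencing depth is stated for the libraries, but the depth reached by each library is not known from the table. In bulk tissue, fewer cells of a type and less RNA per cell cannot be told apart.

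MMPs are zinc enzymes, secreted as inactive proforms or anchored to the membrane, that cut collagens, laminins and proteoglycans, and TIMPs block their active sites. ADAMs shed growth factors, cytokines and receptors from cell surfaces, while the secreted ADAMTS enzymes act on proteoglycans and other matrix proteins. Cathepsins digest proteins in lysosomes and can be released, cystatins inhibit the cysteine cathepsins, and most serpins trap serine proteases in an irreversible complex. In inflamed and tumor-bearing colon these enzymes are known for matrix breakdown, leukocyte passage and activation of signaling molecules.

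Of the 79 members, 59 (74.7%) had a higher mean in AOM/DSS tissue and 20 a lower one, where 57.3% of all listed genes were higher and 42.7% were lower. Among the 67 members above 0 in both groups, 32 (47.8%) were at least 2-fold higher, against 27.3% of such listed genes, and 9 (13.4%) were at least 2-fold lower, against 17.4%. Another 12 members (15.2%) were listed at 0 in naive tissue, against 6.35% of all listed genes. The median log2 ratio of AOM/DSS to naive was 0.94 over the 67 members and 0.38 over the 7299 listed genes above 0 in both groups. Centring all ratios on 0.38 turned 1 member, Ctsb, from higher to lower.

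The share of higher members exceeded that of all listed genes at each level, by unequal amounts. Among members whose higher mean lay between 1 and 10, 21 of 25 (84%) were higher in AOM/DSS tissue, against 63.0% of all listed genes at that level. The difference was smallest between 10 and 100, where 20 of 31 members (64.5%) were higher, against 56.0%. Among those with a higher mean of 100 or more, 11 of 16 (68.8%) were higher, against 48.2%. Below 1 all 7 members were higher, against 64.7%. In naive tissue 30 of the 79 members had a mean below 1 and in AOM/DSS tissue 8 did.

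**Figure D1:**
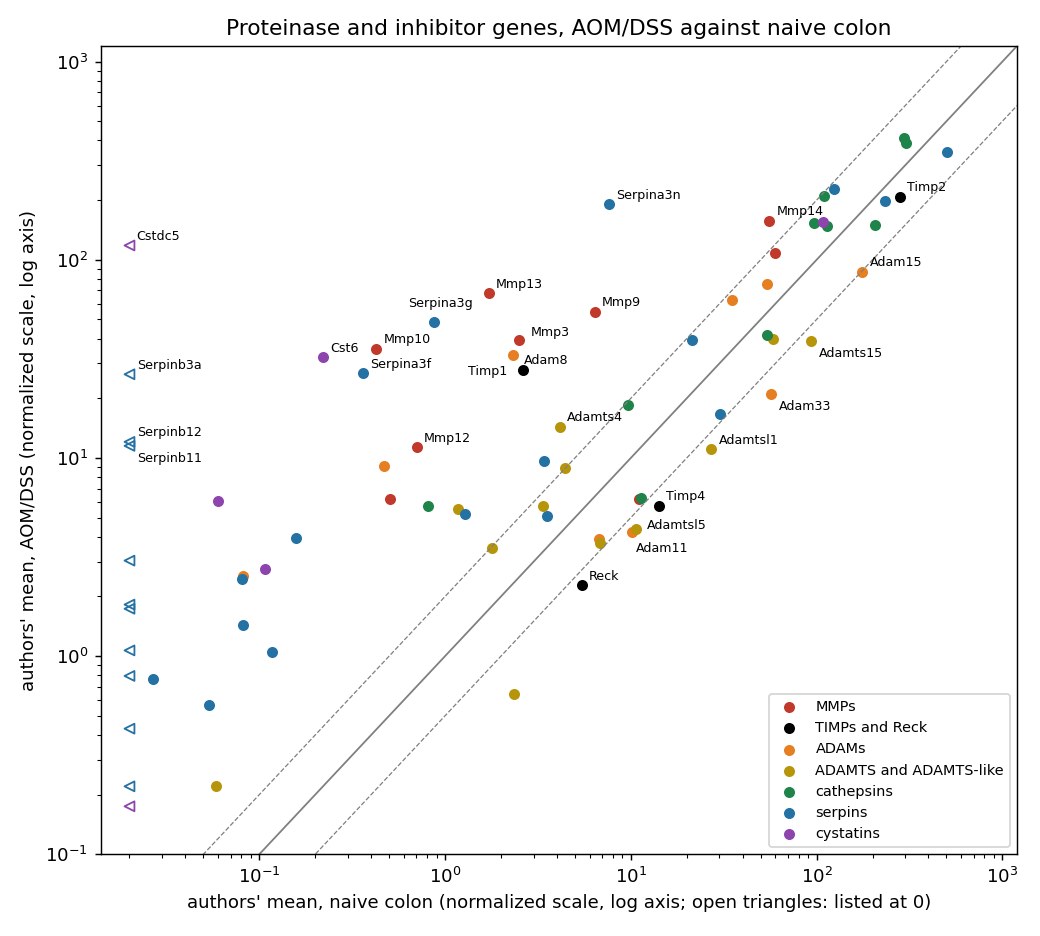
Authors' mean in AOM/DSS tissue (y axis, log scale) against the authors' mean in naive tissue (x axis, log scale) for the members, each point 1 gene, with a solid line for equal means and dashed lines for a 2-fold difference, and without Cstf2 and 1 serpin. Genes listed at 0 in naive tissue stand at the left edge. Most points lie above the line, with Cst6, Mmp10, Serpina3f and Serpina3g far above it and Adam33, Timp4 and Adamtsl1 below it.

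Promoters of 2 groups of genomic neighbors with large ratios are shown, to set their sequences side by side. Each window shown was picked as one that holds the motif marked in it, so the motif's presence there is no result. Mmp13, Mmp12, Mmp3 and Mmp10 lie within a cluster on chromosome 9, and all 4 were higher in AOM/DSS tissue. In the same cluster Mmp1a, Mmp1b, Mmp8, Mmp20 and Mmp27 were not listed. The window of 250 bases before to 50 bases from each annotated start was taken from RefSeq (GRCm38.p6, the build of mm10), 5′ to 3′ on the plus strand. Capitals mark the letters TGANTCA, the motif bound by AP-1 factors, searched on both strands, where N is any base and the motif reads alike on either strand.
Mmp13: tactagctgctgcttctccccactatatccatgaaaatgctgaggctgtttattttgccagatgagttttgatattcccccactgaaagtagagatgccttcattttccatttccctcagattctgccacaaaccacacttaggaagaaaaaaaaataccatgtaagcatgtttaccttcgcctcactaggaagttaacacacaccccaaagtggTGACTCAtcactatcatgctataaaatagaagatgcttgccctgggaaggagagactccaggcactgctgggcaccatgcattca
Mmp12: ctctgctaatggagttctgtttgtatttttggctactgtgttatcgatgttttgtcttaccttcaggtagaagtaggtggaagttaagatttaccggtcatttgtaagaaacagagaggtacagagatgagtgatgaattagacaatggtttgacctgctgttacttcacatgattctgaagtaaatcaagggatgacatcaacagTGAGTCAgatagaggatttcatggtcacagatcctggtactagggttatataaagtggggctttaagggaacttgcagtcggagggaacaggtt
Mmp3: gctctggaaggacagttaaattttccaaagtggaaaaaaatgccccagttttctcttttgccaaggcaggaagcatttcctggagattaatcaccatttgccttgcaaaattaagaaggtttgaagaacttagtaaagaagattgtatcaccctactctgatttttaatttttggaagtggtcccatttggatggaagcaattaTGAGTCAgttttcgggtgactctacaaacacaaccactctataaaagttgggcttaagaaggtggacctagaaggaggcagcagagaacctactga
Mmp10: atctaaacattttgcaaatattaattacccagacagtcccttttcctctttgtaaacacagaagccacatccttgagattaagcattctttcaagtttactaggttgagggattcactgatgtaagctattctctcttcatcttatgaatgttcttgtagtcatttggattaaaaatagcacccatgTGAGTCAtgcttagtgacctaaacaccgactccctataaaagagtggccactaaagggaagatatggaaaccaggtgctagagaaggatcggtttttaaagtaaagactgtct
These windows are chr9:7272264-7272563 for Mmp13, chr9:7347124-7347423 for Mmp12, chr9:7445572-7445871 for Mmp3 and chr9:7502092-7502391 for Mmp10. The motif begins 35 bases before the start in Mmp13, 44 in Mmp12, 46 in Mmp3 and 63 in Mmp10. Mmp12 has a further annotated start whose window lacks these letters.

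Serpina3g and Serpina3f are neighbors on chromosome 12 and were the serpins with the largest ratios among those above 0 in both groups with a mean of at least 10 in AOM/DSS tissue. Their windows are chr12:104235897-104236196 and chr12:104214294-104214593, on the plus strand of the same build. Capitals mark TTCNNNGAA, the motif bound by STAT factors, searched on both strands and alike on either.
Serpina3g: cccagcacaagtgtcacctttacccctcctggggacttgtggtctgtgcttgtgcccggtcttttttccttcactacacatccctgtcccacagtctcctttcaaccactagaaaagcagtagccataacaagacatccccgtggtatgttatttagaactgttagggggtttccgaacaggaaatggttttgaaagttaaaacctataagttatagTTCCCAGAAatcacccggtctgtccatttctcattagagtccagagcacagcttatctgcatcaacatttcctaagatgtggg
Serpina3f: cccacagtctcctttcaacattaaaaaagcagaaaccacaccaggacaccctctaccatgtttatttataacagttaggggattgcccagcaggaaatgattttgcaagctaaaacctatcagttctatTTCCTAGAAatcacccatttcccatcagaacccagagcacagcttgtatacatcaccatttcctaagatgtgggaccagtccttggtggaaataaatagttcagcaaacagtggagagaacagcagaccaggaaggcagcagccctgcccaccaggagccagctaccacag
The motif begins 33 bases before the start in Serpina3g and 121 in the window shown for Serpina3f, which has a further annotated start. Of 32851 RefSeq promoter windows, 7.81% hold TGANTCA and 8.30% hold TTCNNNGAA. Counted per gene, as the members are below, 8.97% and 9.55% of 27025 genes have such a window. Promoter windows were found for 54 of the 79 members. TGANTCA was present in 10 of them (18.5%), of which 4 lie in the Mmp cluster and 4 in the Serpinb cluster on chromosome 1. All 10 were among the 43 members higher in AOM/DSS tissue. Windows were found for 11 of the 20 lower members, and 0 of these held TGANTCA. Beside the Mmp cluster TGANTCA was present in Serpinb2, Serpinb10, Serpinb11, Serpinb12, Cst7 and Serpina1b. TTCNNNGAA was present in 7 of the 54 members (13%), which were 6 of the 43 higher ones and 1 of the 11 lower ones, Serpinb6a. Ctsc, Cstdc4 and Serpinb2 were among the higher ones. Among the 5 Serpina3 genes with a window, TTCNNNGAA was present in Serpina3f, Serpina3g and Serpina3i, and was not in the windows of Serpina3j and Serpina3n. Neither motif was counted by direction over all listed genes, so no difference between higher and lower members is drawn from these counts. These matches describe letters in a window and not binding.

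Of all listed genes 57.3% were higher, and 27.3% of those above 0 in both groups were at least 2-fold higher. Among the MMPs, 8 of the 9 listed genes were higher in AOM/DSS tissue and 7 were at least 2-fold higher, with a median log2 ratio of 3.61. Their summed means were 487 in AOM/DSS and 139 in naive tissue, a ratio of 3.51. Mmp13, the main interstitial collagenase of mice, had a mean of 67.9 against 1.72 in naive tissue, 39.6-fold higher. The stromelysins, which cut proteoglycans and laminin and activate other MMPs, stood beside it. Mmp10 was at 35.6 against 0.426 (83.5-fold) and Mmp3 at 39.5 against 2.51 (15.7-fold). Mmp12, the elastase of macrophages, was at 11.3 against 0.702 (16.2-fold).

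Both gelatinases were higher. Mmp9, stored in neutrophil granules, was at 54.7 against 6.39 (8.56-fold), while Mmp2, a product of stromal cells, was at 108 against 59.7 (1.80-fold). Mmp14, the membrane enzyme that activates the proform of Mmp2, had the highest MMP level in AOM/DSS tissue, 158 against 55.5 (2.84-fold). Of the fibroblast markers 5 of 10 were listed, 4 higher and 1 lower, with a summed mean of 1534 against 1112, a median ratio of 1.67 and none at 0, and their part in the values of Mmp2, Mmp14 and Adam12 was not tested. In naive tissue Mmp2 and Mmp14 held the highest levels of the 9, and Mmp13, Mmp10, Mmp3 and Mmp12 each had a mean below 3. Mmp25, a membrane-anchored MMP of leukocytes, was at 6.19 against 0.506 (12.2-fold). Mmp17, anchored to the membrane by a lipid, was the only listed MMP with a lower mean, 6.21 against 11.1, or 1.79-fold lower. Of the 22 annotated MMP genes other than the one left out, 13 were not listed, among them the neutrophil collagenase Mmp8 and the stromelysin Mmp11.

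The inhibitors of these enzymes differed among themselves. Timp1, an inducible secreted inhibitor, had a mean of 27.9 against 2.61 in naive tissue (10.7-fold higher). Timp2, which takes part with Mmp14 in activating the proform of Mmp2 besides inhibiting MMPs, was lower at 208 against 282 (1.36-fold). Timp4 was lower at 5.75 against 14.2 (2.47-fold). Reck, a membrane-anchored protein that inhibits several MMPs, was lower at 2.28 against 5.43 (2.38-fold). Timp3 was not listed. Timp2 held the highest level of these 4 inhibitors in either group, and the ratio of Timp1 to Timp2 was 0.134 in AOM/DSS and 0.00926 in naive tissue.

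The summed means of the 3 listed TIMPs were 241 in AOM/DSS and 299 in naive tissue. The sum of the 9 MMPs was 2.02 times the sum of the 3 TIMPs in AOM/DSS tissue and 0.463 times that sum in naive tissue. These sums count mRNA tags and leave out the listed MMP excluded by the rule, and the MMPs and the TIMP that were not listed. They say nothing of protein or of enzyme activity.

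**Figure D2:**
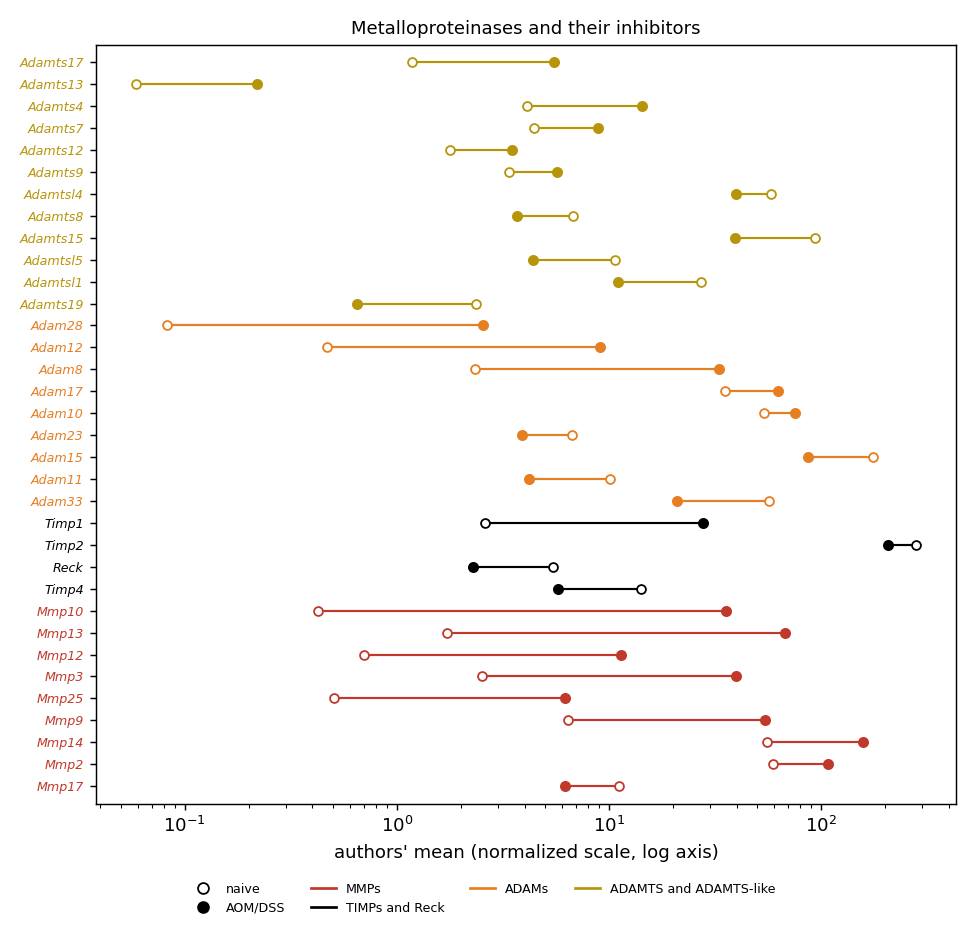
Authors' means in naive and AOM/DSS tissue (x axis, log scale) for each listed MMP, TIMP, ADAM and ADAMTS gene and Reck, with a line joining both means of a gene. Among the MMPs the AOM/DSS mean lies to the right for each gene but Mmp17, and the ADAMTS-like genes lie to the left.

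Of the 9 listed ADAMs, 5 were higher and 4 lower, near the 57.3% higher and 42.7% lower of all listed genes. Their median log2 ratio was 0.48. The direction of this median turned when low genes were left out, to -0.79 over ADAMs whose naive and AOM/DSS means both reached 1. The ADAMs with large ratios were low in naive tissue. Adam8, a protease of myeloid cells, was at 33.0 against 2.33 (14.1-fold higher). Adam12, found in mesenchymal cells, was at 9.13 against 0.468 (19.5-fold). Adam28, first known from lymphocytes, was at 2.55 against 0.0821 (31.0-fold). With 1 added to both means the log2 ratio of Adam28 fell from 4.95 to 1.71 and that of Adam12 from 4.28 to 2.79.

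The main sheddases of the cell surface showed smaller ratios. Adam17, which releases tumor necrosis factor and ligands of the epidermal growth factor receptor, was at 62.6 against 35.2 (1.78-fold higher). Adam10, which cuts Notch and cadherins, was at 75.3 against 54.0 (1.40-fold). Adam15 had the highest naive level of the family and was lower in AOM/DSS tissue, 87.0 against 176.5 (2.03-fold). Adam33, a gene of smooth muscle and mesenchymal cells, was lower at 21 against 57.0 (2.72-fold). Adam11 and Adam23, which lack a working protease site and are known from neurons, were lower at 4.22 against 10.1 (2.40-fold) and 3.89 against 6.72 (1.73-fold).

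Of the 12 ADAMTS and ADAMTS-like genes, 6 were higher and 6 lower, where 57.3% of all listed genes were higher. The median log2 ratio of 0.10 lies below the 0.38 of all listed genes, and turned to -0.27 after centring on that value. Adamts4, an aggrecanase that cuts aggrecan and versican, was at 14.4 against 4.13 (3.48-fold higher). Adamts15, which also cuts versican, was lower at 39.1 against 93.8 (2.40-fold) and had the highest level of the family in naive tissue. Adamts17 was at 5.54 against 1.18 (4.71-fold higher), Adamts7 at 8.86 against 4.43 (2.00-fold), Adamts12 at 3.50 against 1.78 (1.96-fold) and Adamts9 at 5.72 against 3.37 (1.70-fold).

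Adamts13, the protease of von Willebrand factor, was below 1 in both groups. Adamts8 and Adamts19 were lower, at 3.71 against 6.81 (1.84-fold) and 0.646 against 2.36 (3.66-fold). The 3 listed ADAMTS-like genes, secreted matrix proteins without a protease domain, were all lower. Adamtsl1 was at 11 against 27.1 (2.46-fold), Adamtsl5 at 4.37 against 10.7 (2.45-fold) and Adamtsl4 at 39.7 against 58.3 (1.47-fold).

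Smooth muscle transcripts were lower beside these members. All 8 of 8 smooth muscle markers were listed and at least 2-fold lower in AOM/DSS tissue, with a summed mean of 4340 against 10671 and none at 0. Their median ratio was 0.395. The ratios of the 20 lower members lay between 0.273 (Adamts19) and 0.840 (Serpinb6a), among them Adam33 at 0.368, Adam15 at 0.493 and Timp2 at 0.737. The part of the muscle coat in these values was not tested.

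Several cathepsins stood among the highest members, and their ratios were mostly small. Of the 10 listed, 7 were higher and 3 lower, where 57.3% of all listed genes were higher. Of these 10, 1 was at least 2-fold higher, against 27.3% of listed genes above 0 in both groups. None was at least 2-fold lower, against 17.4%. The cathepsins had a median log2 ratio of 0.43. Their summed means were 1532 in AOM/DSS and 1198 in naive tissue, a ratio of 1.28. Ctsd, an aspartic protease, was the highest member in AOM/DSS tissue at 410 against 295 (1.39-fold higher). Ctsb, a cysteine protease, followed at 389 against 301 (1.29-fold), below the median ratio of all listed genes of 1.30.

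Other lysosomal cysteine cathepsins were higher by similar ratios, with Ctsh at 148 against 113 (1.30-fold) and Ctsz at 153 against 96.8 (1.58-fold). Ctsc, which activates the serine proteases of neutrophils, mast cells and cytotoxic lymphocytes, was at 210.4 against 109.5 (1.92-fold). Ctsk, the collagen-degrading cathepsin of osteoclasts, was at 18.4 against 9.61 (1.92-fold). The cathepsin with the largest ratio was Ctsw, a gene of cytotoxic lymphocytes, at 5.69 against 0.805 (7.07-fold). Ctsl, Ctse and Ctsf were lower, at 150.0 against 206 (1.38-fold), 41.9 against 54.0 (1.29-fold) and 6.27 against 11.3 (1.80-fold). Ctss, a cathepsin of antigen-presenting cells, and Ctsg, a serine protease of neutrophil granules, were not in the table.

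Markers of leukocytes were higher in AOM/DSS tissue beside several enzymes known from these cells, while Mmp8, Ctsg and Ctss, also known from leukocytes, were not listed. For neutrophils 6 of 9 markers were listed, all higher, with a summed mean of 914 against 5.86, and Ngp was listed at 0 in naive tissue. For macrophages 8 of 10 were listed, all higher, with a sum of 1869 against 780.4. For cytotoxic and T cells 7 of 8 were listed, all higher, with a sum of 36.4 against 2.85, and Cd8a and Gzma at 0 in naive tissue. For mast cells 5 of 8 were listed, all higher, with a sum of 34.6 against 11.3, and Mcpt1 at 0 in naive tissue. Their part in the levels of Mmp9, Mmp25, Mmp12, Adam8, Ctsc and Ctsw was not tested.

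Of the 28 listed serpins, 25 were higher and 3 lower, where 57.3% of all listed genes were higher. Of these serpins, 12 were at least 2-fold higher and another 10 were listed at 0 in naive tissue. The same shares of all listed genes were 25.3% and 6.35%. Over the members above 0 in both groups the median log2 ratio was 2.60. This value rested on low genes, as it was 0.89 over serpins whose naive and AOM/DSS means both reached 1. The summed means were 1209 against 935, a ratio of 1.29. Among the highest serpins, Serpina3n and Serping1 were higher and Serpinb1a and Serpinb6a lower.

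The clade A serpins, relatives of the plasma inhibitors antitrypsin and antichymotrypsin, were higher in 10 of 10 cases, with a sum of 277 against 9.17. Serpina3n, a secreted antichymotrypsin-like inhibitor and acute-phase protein, was at 190.7 against 7.66 (24.9-fold higher). It stood at rank 8 of all 79 members in AOM/DSS tissue and at rank 31 in naive tissue. Serpina3g, an intracellular serpin of leukocytes that can inhibit cathepsins, was at 48.7 against 0.867 (56.2-fold), and Serpina3f at 26.8 against 0.360 (74.4-fold). These 3 genes made up most of the clade's sum.

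The remaining clade A genes were low. Serpina3m was at 3.03, Serpina3j at 1.73, Serpina3i at 1.07 and Serpina12 at 0.430 in AOM/DSS tissue, each listed at 0 in naive tissue. Serpina10, Serpina1e and Serpina1b were at 2.45, 1.44 and 1.05 against naive means of 0.0804, 0.0821 and 0.117. Apart from Serpina10, these genes lie with the Serpina3 genes on chromosome 12 between bases 103728156 and 104414334. This stretch, whose limits were chosen, holds 19 annotated Serpina genes, of which 9 were listed and all were higher. Serpina10 lies before it on the same chromosome, at 103616675 to 103631490.

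The clade B serpins, which act mainly inside cells, differed by level and position. Serpinb1a, an inhibitor of neutrophil elastase, and Serpinb6a, an inhibitor of cathepsin G, were by far the highest and were lower in AOM/DSS tissue. Serpinb1a was at 350 against 502 (1.43-fold lower) and Serpinb6a at 197 against 235 (1.19-fold). In naive tissue Serpinb1a was the highest of all 79 members. Serpinb9, an inhibitor of granzyme B, was at 9.69 against 3.40 (2.85-fold higher), and Serpinb6b at 5.23 against 1.28 (4.07-fold). Serpinb9b was below 1 in both groups.

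The Serpinb cluster on chromosome 1 was taken as the stretch from base 106934449 to 107608978. Of its 11 annotated Serpinb genes 7 were listed, all were higher and 6 were listed at 0 in naive tissue. Serpinb3a, of the family of the squamous cell carcinoma antigens of humans, was at 26.4, Serpinb12 at 12.1 and Serpinb11 at 11.5 in AOM/DSS tissue against 0. Serpinb2, an inhibitor of plasminogen activators, was at 1.82, Serpinb3b at 0.794 and Serpinb3d at 0.220, also against 0. Serpinb10, the only gene of the cluster listed above 0 in naive tissue, was at 3.95 against 0.157 (25.1-fold). With 1 added to both means its log2 ratio fell from 4.65 to 2.10.

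The listed serpins of the other clades are secreted, and several inhibit proteases of clotting, fibrinolysis and complement. Serpine2, which inhibits thrombin and plasminogen activators, was at 39.6 against 21.3 (1.85-fold higher), and Serping1, the inhibitor of the first complement proteases, at 228 against 124 (1.85-fold). Serpini1, a neuronal serpin, was at 5.10 against 3.53 (1.44-fold) and Serpind1, a thrombin inhibitor, at 0.768 against 0.0269. Serpinf1, an antiangiogenic serpin without inhibitory activity, was the only lower one, at 16.7 against 30.1 (1.80-fold). Serpinh1, the collagen chaperone, was not listed.

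**Figure D3:**
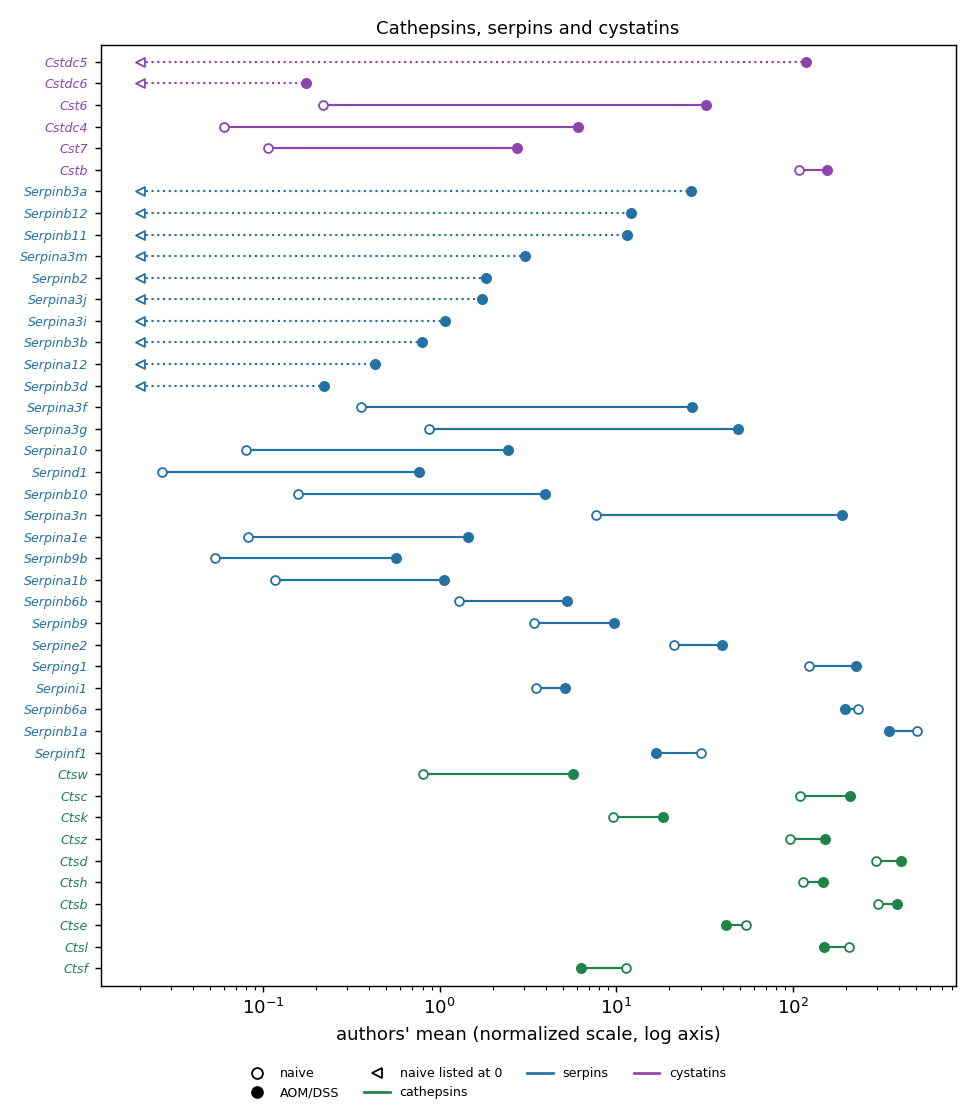
Authors' means in naive and AOM/DSS tissue (x axis, log scale) for each listed cathepsin, serpin and cystatin except 1 serpin, with a line joining both means of a gene and a separate mark for naive means listed at 0. Most cathepsins lie at the right with short lines, apart from Ctsw, Ctsk and Ctsf. The lines of the clade A serpins and of the cystatins other than Cstb are long.

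All 6 listed cystatins were higher, where 57.3% of all listed genes were, with summed means of 315 against 109. Cst6, a secreted cystatin of skin and other stratified epithelia, was at 32.1 against 0.219 (146-fold). Cst7, a cystatin of leukocytes, was at 2.76 against 0.107 (25.7-fold), and its log2 ratio fell from 4.69 to 1.76 with 1 added to both means. Cstb, the stefin found in most cells, was the highest in naive tissue and was at 156 against 108 (1.44-fold). Cstdc5, Cstdc4 and Cstdc6 belong to the stefin A cluster on chromosome 16, whose products inhibit cysteine cathepsins in the cytosol. Cstdc5 was at 118 against 0, Cstdc6 at 0.175 against 0 and Cstdc4 at 6.05 against 0.0603. The median log2 ratio of 5.67 came from the 4 cystatins above 0 in both groups. Cstb was the only cystatin whose naive and AOM/DSS means both reached 1, with a log2 ratio of 0.52. Cstf2, no protease inhibitor, was at 46.1 against 22.2 (2.08-fold higher).

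The listed cystatins and the listed genes of the Serpinb cluster on chromosome 1 were higher beside markers of stratified epithelium. All 8 of 8 of these markers were listed and higher, with a summed mean of 1358 against 6.64. Krt13 was at 440 against 0.148, Krt5 at 233 against 0.266 and Krt6a at 216 against 0. Of the colon epithelium markers 6 of 10 were listed, 5 lower and 1 higher, with a sum of 4007 against 8529 and none at 0. Markers of neutrophils and other leukocytes, given above, were higher too. The part of stratified epithelium or of leukocytes in the values of Cst6, Cstdc5 and the Serpinb genes was not tested.

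Some of these genes share their transcript ends with close relatives, which bears on 3′ sequencing. In 9 of the 79 members the last 200 bases of the transcript were at least 90% identical to another gene, so their reads could be split between copies. These were Cstdc4, Cstdc5, Cstdc6, Serpina1b, Serpina1e, Serpina3m, Serpinb3a, Serpinb3b and Serpinb9b. Cstdc5 was 98.5% identical to Stfa1 in this stretch, and Serpina3f and Serpina3g were 88.5% and 88% identical to Serpina3i. The values of these genes are uncertain as to which copy was counted.

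**Figure D4:**
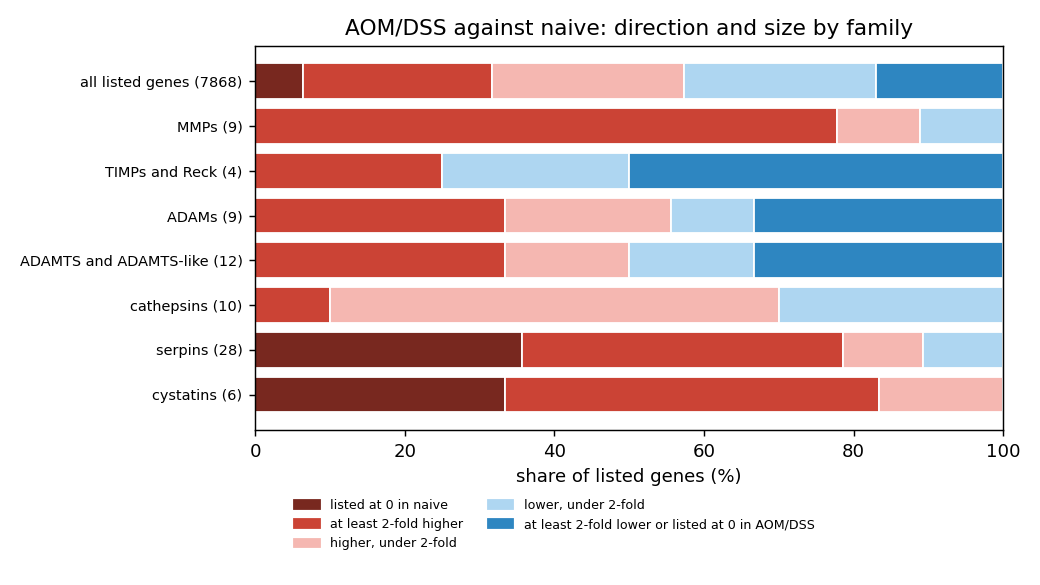
Share of listed genes (x axis, percent) in each family and among all listed genes that were listed at 0 in naive tissue, at least 2-fold higher, higher by less, lower by less, or at least 2-fold lower in AOM/DSS tissue, the last class including genes listed at 0 there. Of the MMPs 77.8% were at least 2-fold higher, against 25.3% of all listed genes, and 60% of the cathepsins were higher by less than 2-fold.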

How the data were processed

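Colon tissue of 4 naive and 7 AOM/DSS mice was profiled by QuantSeq 3′ mRNA sequencing. The labels' replicates were taken as separate mice. The submitters' processing notes name cutadapt, STAR and Partek with the mouse build mm10. The authors aligned the reads and derived normalized gene counts, then ran the gene-specific analysis of Partek Flow. Sources used here do not give the normalization or its scale. The deposited table holds the authors' least-squares mean of each group, and a mean of 0.0001 stands for 0 in it (500 naive and 69 AOM/DSS means). Its deposited p-value, FDR and fold columns are the authors' own comparison and were not used, except to check that no p-value was above 0.05.

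The ratio of the group means was computed for each gene above 0 in both groups, with medians and counts by family beside those of all listed genes. Members, families and gene lists were chosen with earlier results of these data known. Full values were to be given for members with a mean of at least 10 in 1 group and a ratio of at least 2, for Timp genes and Reck, and for the 5 largest ratios in each direction among members whose naive and AOM/DSS means both reached 1. Values of other members were added after they were seen, and 1 serpin is counted but not reported here by name. Alternatives were a pseudocount of 1 or 0.1, minimum means of 1 and 10, median-centring, and fold limits of 1.5 and 4. Promoters and positions came from RefSeq (GRCm38.p6) and transcript ends from GENCODE M21, compared by BLAST 2.17.0. Python 3.11.15 and matplotlib 3.10.9 were used, and the code was tested on simulated data.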

Additional observations from a re-analysis of the deposited data

How the results depend on the processing

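No paired analysis was possible because the table holds group means and no values per mouse, and for the same reason no replicate could be left out. Counts of members shrank where a minimum mean kept fewer genes. Percentages in parentheses here are shares of all listed genes under the same setting, and not of members. With naive and AOM/DSS means both reaching 1, 29 of 48 members were higher (52.6% of all listed genes) and 14 at least 2-fold higher (19.7%). With a mean of at least 10 in the higher group these were 31 of 47 (54.1%) and 15 (18.6%), against 59 and 32. Lower by the fold limit were 14 of 67 members after median-centring (28.4% of all listed genes), 14 at 1.5-fold (29.9%) and 0 at 4-fold (5.15%), against 9. Adding 1 to each mean gave median log2 ratios of 2.86 for MMPs, -0.17 for ADAMTS and ADAMTS-like genes, 1.03 for serpins and 2.25 for cystatins, and adding 0.1 gave 4.52 for cystatins. Means reaching 1 in naive and in AOM/DSS tissue gave 2.30 for MMPs, -0.79 for ADAMs and 0.89 for serpins. The only cystatin kept there was Cstb, at 0.52. A mean of at least 10 in the higher group gave -0.27 for ADAMs, -1.26 for ADAMTS and ADAMTS-like genes and 0.89 for serpins. It gave 3.86 for cystatins, where only Cst6 and Cstb had a ratio. Median-centring gave -0.27 for ADAMTS and ADAMTS-like genes. In 2 alternatives chosen after seeing the data, groups of members were left out. Leaving out members with shared transcript ends gave 1.95 for serpins and 4.69 for the 3 cystatins kept. Leaving out the Serpinb cluster of chromosome 1, the stefin A cluster and Cst6 gave 2.61 for the 2 cystatins kept. The cause of the shifts in medians was not tested. Of the 24 members above 0 in both groups that met the rule for full values none changed direction. Adding 1 to each mean moved 6 of their log2 ratios beyond a limit of 1.5-fold. These fell from 7.19 to 4.76 for Cst6, 6.38 to 4.68 for Mmp10 and 6.22 to 4.35 for Serpina3f. The others fell from 5.81 to 4.73 for Serpina3g, 5.31 to 4.66 for Mmp13 and 4.01 to 2.86 for Mmp12. The depth reached by each library is not known from the table, so the precision of low means could not be given.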

Other observations

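Proteases and inhibitors that work with these families but carry other names were gathered in a list of 43 genes from textbook knowledge. Of these 28 were in the table, with 19 higher in AOM/DSS tissue and 9 lower, where 57.3% of all listed genes were higher and 42.7% lower. Among those above 0 in both groups, 8 were at least 2-fold higher and 3 at least 2-fold lower, against 27.3% and 17.4% of such listed genes. Another 4 were listed at 0 in naive tissue, against 6.35% of all listed genes. Slpi, a secreted inhibitor of neutrophil elastase, had an authors' mean of 796 against 22.1 in naive tissue (36.0-fold higher). The plasminogen activator system was higher as well, with Plat at 41.0 against 8.91 (4.60-fold), Plaur, the receptor of the urokinase activator, at 28.2 against 5.24 (5.38-fold) and Plau, the urokinase activator itself, at 17.9 against 10.5 (1.71-fold). Furin, which activates proforms of Mmp14 and of ADAMs, was at 150 against 99.9 (1.50-fold). The remaining listed genes of the stefin A cluster were all higher, with Stfa3 at 11.5 against 0 and Stfa2l1 at 7.09 against 0.0864. Stfa1 was at 1.61 against 0.0857 and Stfa2 at 0.282 against 0.

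Several proteases of the differentiated colon were lower. Klk1, a kallikrein, was at 146 against 469 (3.20-fold lower), and Mep1a, a meprin subunit of the brush border, at 15.7 against 120.5 (7.67-fold). Wfdc2, a secreted protein with the kind of domain found in Slpi, was lower at 224 against 421 (1.88-fold). These genes were chosen after their values were seen.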
